A study of Mus musculus with 6 samples.

Results

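The NRF2 antioxidant genes described here are 10 genes chosen by name: the transcription factor gene Nfe2l2, its inhibitor gene Keap1, and 8 genes of antioxidant enzymes and proteins (Nqo1, Hmox1, Gclc, Gclm, Txn1, Txnrd1, Prdx1 and Srxn1). All 10 had a row among the 21017 genes of the deposited count table, and all 10 passed the filter on low counts that left 16654 genes for testing. RNA sequencing had been done on 6 libraries of lung group 2 innate lymphoid cells (ILC2s), tissue lymphocytes without antigen receptors that secrete type 2 cytokines. Both groups of 3 libraries, IL-10-producing and IL-10-negative, came from C57BL/6J mice of genotype IL-10GFP, a fluorescent reporter of the Il10 gene, aged 8 weeks. Every mouse had been given the alarmin IL-33 into the nose 3 times at 0.5 µg, and the ILC2s sorted from the lungs were then cultured for 48 h in IL-4 together with IL-2 and IL-7, at 10 ng/mL per cytokine, before the second sort separated IL-10-producing from IL-10-negative cells. The labels call the cells freshly sorted, while the protocol places the culture before the sort for sequencing. They do not say whether the libraries of a group came from separate mice or cultures or from pooled mice, so p-values measure the spread between libraries, which may be technical.

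NRF2, the protein made from Nfe2l2, is held at a low level by KEAP1, which hands it to a ubiquitin ligase built on CUL3. Oxidants and electrophiles modify cysteines of KEAP1, NRF2 then accumulates, pairs with small MAF proteins and binds antioxidant response elements (AREs) near genes that make glutathione, recycle thioredoxin and remove quinones. Lymphocytes rely on glutathione and thioredoxin when they grow and divide after activation.

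Library totals ran from 47012941 to 69511433 estimated counts. The sort was visible in Il10, at 840 to 854 CPM (counts scaled to a common library size with TMM factors) in the IL-10-producing and 13.01 to 14.2 CPM in the IL-10-negative libraries; the cells were sorted on its reporter, so this checks the labels only. ILC2 markers were abundant in all libraries, with a summed level of 9 genes of 9015 to 9058 CPM in IL-10-producing and 9533 to 9610 CPM in IL-10-negative libraries. They were led by Il1rl1, the IL-33 receptor, at 3299 ± 31.7 against 4069 ± 30.1 CPM, and by Il5, at 2125 to 2176 against 2062 to 2101 CPM. The 9 genes did not move alike: the test called a rise for 3 of them and a fall for 4. All 9 T-cell markers were called lower in IL-10-producing cells (9 of 9, summed level 10.4 to 10.6 against 62.3 to 66.7 CPM; Cd8a 0.0594 against 15.3 CPM, Cd3g 4.18 against 10.5 CPM). Markers of mast cells, basophils and neutrophils were lower as well (10 of 10 tested, 11 listed, summed level 12.3 to 14.2 against 95.5 to 101.5 CPM; Mpo 0.954 against 30.6 CPM, Cpa3 4.46 against 22.9 CPM; S100a8 and S100a9 were under 1 CPM in every library). Of 12 macrophage and monocyte markers 4 had no row and 5 were under 1 CPM in every library, and the rest, led by Chil3 and Cd68, summed with them to 12.8 to 13.3 against 11.8 to 13.4 CPM. Of the B-cell markers, Cd79b stood at 15.5 ± 0.741 against 14.5 ± 0.522 CPM and Cd79a at 0.469 ± 0.106 against 0.938 ± 0.0778 CPM (SD, n = 3). Ms4a1 and Pax5 were under 1 CPM in every library. Cd79a, Ms4a1 and Pax5 were called lower in IL-10-producing cells, without overlap between the groups, and Cd79b was not called. For epithelium and endothelium 3 of 6 markers had no row, and Krt8 was under 1 CPM in every library. The sum of 118 to 125 against 103 to 110 CPM came mainly from Pecam1, followed by Epcam, which moved in opposite directions. Pecam1 was higher in IL-10-producing cells (103 to 110 against 83.7 to 90.9 CPM) and Epcam lower (14.7 to 15.1 against 19.1 to 19.5 CPM).

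Most NRF2 genes were lower in IL-10-producing ILC2s: of those that passed the test, Txn1 fell by 5.94%, the least, and Nqo1 fell by 46.1%, the most. With edgeR's quasi-likelihood test, adjusted over all genes tested at a threshold of 0.05, 8 of the 10 fell, 0 rose and 2, Keap1 and Prdx1, did not pass. The 4 largest falls were those of Nqo1, Nfe2l2, Gclc and Gclm, and those of Srxn1, Hmox1, Txnrd1 and Txn1 were smaller. Of all genes tested 35.7% were called, 18.6% as lower and 17.1% as higher, and among the 4510 genes with a mean of at least 50 CPM 22.6% were called lower. Nfe2l2, at 38.9 against 55.1 CPM, had a mean below this floor. The shares given below for non-overlap and for the 1.2-fold test are over all genes tested, including those of lower counts. The median log2 fold change of the 10 genes (IL-10-producing over IL-10-negative) was -0.20, against -0.0038 for all genes tested. For the same 8 genes every IL-10-producing library lay below every IL-10-negative library, which was so for 23.5% of all genes tested. In a test against a change of at least 1.2-fold, 4 of the 10 were called lower (Nqo1, Nfe2l2, Gclc and Gclm), against 5.46% of all genes. The T-cell markers and those of mast cells, basophils and neutrophils moved the same way in the same libraries. So did the B-cell markers Cd79a, Ms4a1 and Pax5. The part of all these markers in the falls was not tested. In sorted populations, fewer cells that express a gene and less RNA per cell cannot be told apart.

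**Figure D1:**
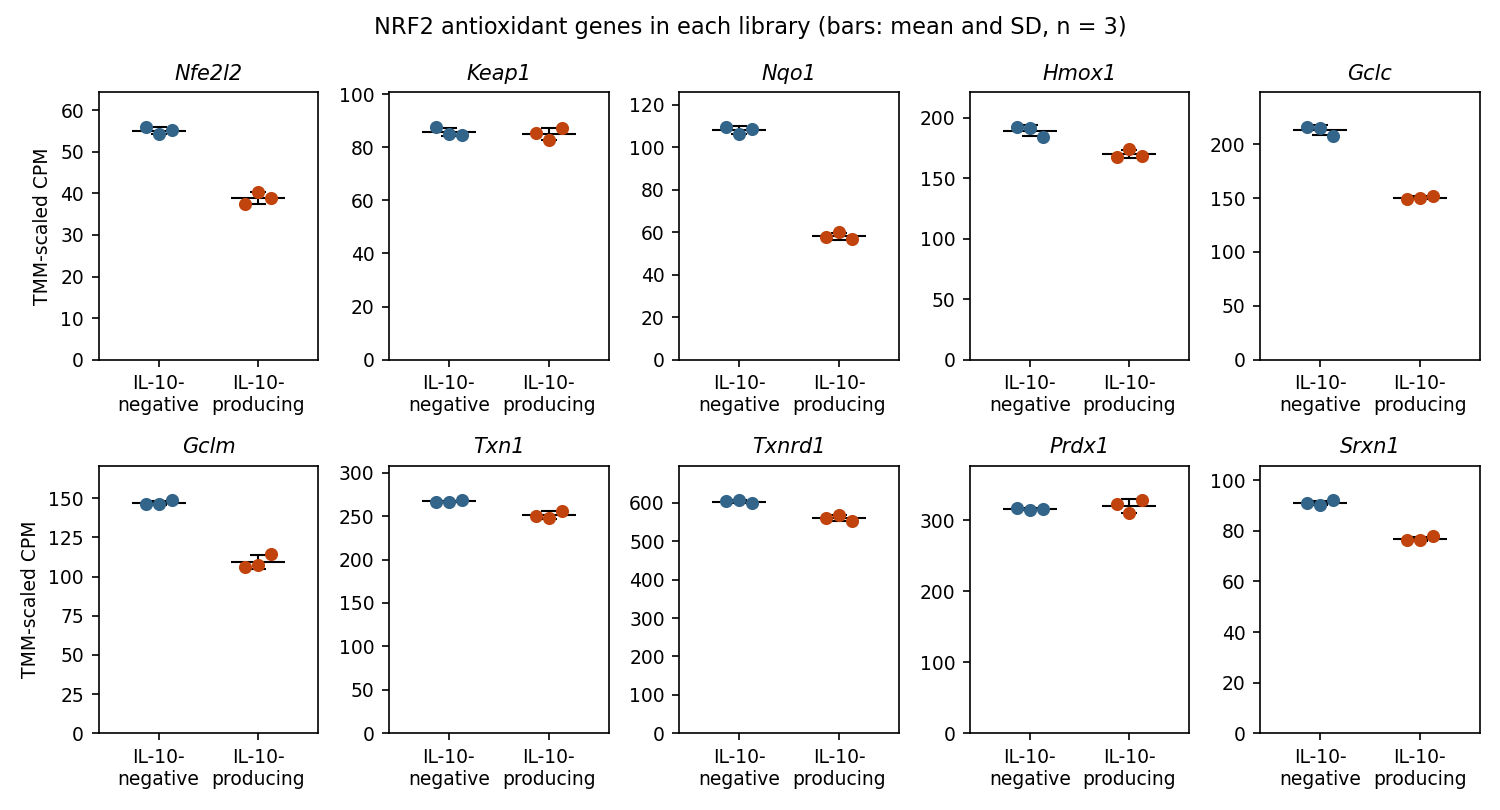
TMM-scaled CPM (vertical axes, each from 0) of the 10 genes in the 3 IL-10-negative (blue) and 3 IL-10-producing (red) libraries, with the mean and SD as black bars. The groups lie apart for 8 genes and overlap for Keap1 and Prdx1, and the largest fold difference is that of Nqo1, at 56.8 to 59.998 against 106 to 110 CPM.

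The transcription factor gene and its inhibitor did not move together. Nfe2l2 (ENSMUSG00000015839.6, mm10 chromosome 2, 75675513 to 75704641, minus strand) stood at 37.5, 40.3 and 38.9 CPM in the IL-10-producing libraries and at 56.0, 54.2 and 55.2 CPM in the IL-10-negative libraries. All 3 IL-10-producing values were below all 3 others, and the gene fell by 29.4% (38.9 ± 1.39 against 55.1 ± 0.910 CPM, SD, n = 3; log2 fold change -0.50, SE 0.037, adjusted p = 5.04e-11 with edgeR). Keap1 (ENSMUSG00000003308.15, chromosome 9, 21229730 to 21239361, minus strand) stood at 85.3, 82.7 and 87.1 CPM in the IL-10-producing and at 87.7, 85.1 and 84.5 CPM in the IL-10-negative libraries. The groups overlapped, and the log2 fold change of Keap1 was -0.013 with a 95% interval of -0.073 to 0.047 (adjusted p = 0.775 with edgeR). Within each library the ratio of Keap1 to Nfe2l2 counts was 2.27, 2.06 and 2.24 in IL-10-producing cells and 1.57, 1.57 and 1.53 in IL-10-negative cells. This ratio does not depend on how libraries are scaled. Its log2 value was higher by 0.49 in IL-10-producing cells (1.13 ± 0.0795 against 0.638 ± 0.0208, SD, n = 3), and the two-sided exact permutation test gave p = 0.1, the smallest that 3 against 3 libraries allow (0.2 when adjusted over the 4 ratios examined). Exons of Keap1 share 510 bases with the antisense gene Gm16754, and the sources used here do not give the strand setting of the counting, so reads of the pair cannot be told apart.

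The quinone reductase gene Nqo1 had the largest fall of the 10. NQO1 reduces quinones with both electrons in a single step and is widely used as a readout of NRF2. Nqo1 (ENSMUSG00000003849.8, chromosome 8, 107388225 to 107403206, minus strand) stood at 57.7, 59.998 and 56.8 CPM in IL-10-producing and at 110, 106 and 109 CPM in IL-10-negative libraries. The groups were far apart, and Nqo1 was 1.86-fold higher in IL-10-negative cells (58.2 ± 1.65 against 108 ± 1.74 CPM, SD, n = 3; log2 fold change -0.89, SE 0.030, adjusted p = 7.24e-18 with edgeR). Of the 4510 genes with a mean of at least 50 CPM, 8 others fell by at least as much as Nqo1. Hmox1 encodes haem oxygenase 1, which breaks haem down to biliverdin, carbon monoxide and iron, and it is also known as a gene of macrophages that clear red cells. Hmox1 (ENSMUSG00000005413.8, chromosome 8, 75093621 to 75100589, plus strand) stood at 168, 174 and 168 CPM in IL-10-producing and at 192, 191 and 184 CPM in IL-10-negative libraries. The groups did not overlap, but the lowest IL-10-negative library was close to the highest IL-10-producing one, and Hmox1 fell by 10.2% (log2 fold change -0.16, SE 0.024, adjusted p = 7.91e-06 with edgeR). The sum of the macrophage and monocyte markers overlapped between the groups, at 12.8 to 13.3 against 11.8 to 13.4 CPM, but of 7 tested 2 were higher (Chil3 and Cd68) and 3 lower (Csf1r, Adgre1 and Mrc1; Csf1r 0.217 ± 0.0762 against 0.887 ± 0.257 CPM, SD, n = 3). Their part in the fall of Hmox1 was not tested.

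Both subunits of glutamate-cysteine ligase, the enzyme of the rate-limiting step of glutathione synthesis, were lower in IL-10-producing cells. Gclc, the catalytic subunit (ENSMUSG00000032350.9, chromosome 9, 77754535 to 77794485, plus strand), stood at 149, 150 and 152 CPM in IL-10-producing and at 216, 215 and 208 CPM in IL-10-negative libraries. All 3 IL-10-producing libraries were below all 3 others, and Gclc fell by 29.3% (151 ± 1.504 against 213 ± 4.604 CPM, SD, n = 3; log2 fold change -0.50, SE 0.023, adjusted p = 3.99e-15 with edgeR). Gclm, the modifier subunit (ENSMUSG00000028124.15, chromosome 3, 122245557 to 122270732, plus strand), stood at 106, 107 and 114 CPM in IL-10-producing and at 146, 146 and 149 CPM in IL-10-negative libraries. Here too the groups were apart, and Gclm fell by 25.8% (109 ± 4.36 against 147 ± 1.32 CPM, SD, n = 3; log2 fold change -0.43, SE 0.027, adjusted p = 2.16e-12 with edgeR). Whether the balance of the subunits differed between the populations could not be decided. With 3 against 3 libraries the two-sided exact permutation test cannot go below p = 0.1. The ratio of Gclm to Gclc counts was 0.713, 0.713 and 0.752 in IL-10-producing and 0.677, 0.680 and 0.716 in IL-10-negative libraries, which overlapped (log2 difference 0.071, two-sided exact permutation p = 0.3). Without IL-10-producing replicate 3 the difference was 0.046, and without IL-10-negative replicate 3 it was 0.097. Exons of Gclm share 296 bases with Gm17494 on the opposite strand and 244 bases with the pseudogene Gm6061, so its counts could include reads of either.

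Of the thioredoxin and peroxiredoxin genes, 3 fell and Prdx1 did not pass. Thioredoxin, encoded by Txn1, is a small protein that reduces disulphides, and thioredoxin reductase 1, the selenoprotein encoded by Txnrd1, returns it to its reduced form with NADPH. Txn1 (ENSMUSG00000028367.5, chromosome 4, 57943373 to 57956411, minus strand) stood at 251, 247 and 256 CPM in IL-10-producing and at 266, 267 and 268 CPM in IL-10-negative libraries. The groups did not overlap, and Txn1 fell by 5.94% (log2 fold change -0.088, SE 0.020, adjusted p = 0.00118 with edgeR). Txnrd1 (ENSMUSG00000020250.10, chromosome 10, 82833951 to 82897712, plus strand) stood at 560, 568 and 553 CPM in IL-10-producing and at 604, 607 and 600.3 CPM in IL-10-negative libraries. It fell by 7.14% (log2 fold change -0.11, SE 0.018, adjusted p = 2.99e-05 with edgeR), again with no overlap. The ratio of Txn1 to Txnrd1 counts overlapped between the groups, at 0.436 to 0.463 in IL-10-producing and 0.440 to 0.447 in IL-10-negative libraries (two-sided exact permutation p = 0.6). Without IL-10-producing replicate 3 the difference of its log2 values changed from 0.019 to -0.0032, and without IL-10-producing replicate 2 it was 0.040.

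Peroxiredoxin 1 removes hydrogen peroxide, and sulfiredoxin, encoded by Srxn1, repairs peroxiredoxins whose active-site cysteine has been over-oxidised. Prdx1 (ENSMUSG00000028691.12, chromosome 4, 116685544 to 116700822, plus strand) stood at 323, 310 and 328 CPM in IL-10-producing and at 317, 315 and 316 CPM in IL-10-negative libraries. The groups overlapped, and its log2 fold change of 0.018 had a 95% interval of -0.026 to 0.062 (adjusted p = 0.564 with edgeR). Srxn1 (ENSMUSG00000032802.8, chromosome 2, 152105516 to 152111376, plus strand) stood at 76.3, 76.5 and 77.9 CPM in IL-10-producing and at 90.9, 90.3 and 92.0 CPM in IL-10-negative libraries. With no overlap between the groups it fell by 15.6% (log2 fold change -0.24, SE 0.027, adjusted p = 7.67e-08 with edgeR). The ratio of Srxn1 to Prdx1 counts was 0.237, 0.247 and 0.237 in IL-10-producing and 0.287, 0.287 and 0.291 in IL-10-negative libraries. Its log2 value was lower in IL-10-producing cells without overlap (a difference of -0.26, two-sided exact permutation p = 0.1, the smallest possible, and 0.2 adjusted over the 4 ratios).

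**Figure D2:**
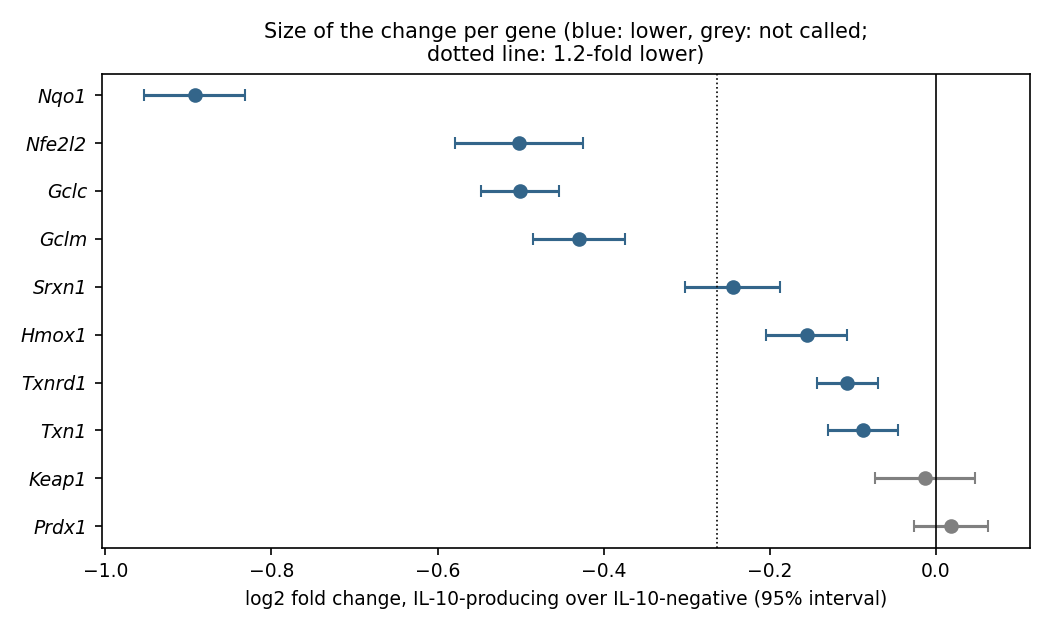
Log2 fold change of each gene (horizontal axis, IL-10-producing over IL-10-negative) with its 95% interval from the edgeR fit. The intervals of Nqo1, Nfe2l2, Gclc and Gclm lie wholly beyond a 1.2-fold fall (dotted line), that of Srxn1 spans it, and those of Keap1 and Prdx1 include 0.

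Levels per length show how the 10 genes stood to each other. Per kilobase of merged exons (GENCODE M21), Txn1 was the highest in both populations, at 254 ± 0.884 CPM per kilobase in IL-10-negative and 239 ± 4.05 in IL-10-producing cells, and Nfe2l2 the lowest, at 14.5 ± 0.240 and 10.2 ± 0.366 (SD, n = 3). In IL-10-negative cells the others followed in the order Hmox1 (108), Prdx1 (104), Txnrd1 (85.2), Nqo1 (69.6), Gclc (56.5), Srxn1 (32.3), Gclm (23.4) and Keap1 (18.3 CPM per kilobase), and no neighbours in this order overlapped over the 3 libraries. In IL-10-producing cells Prdx1 (105) stood above Hmox1 (97.0), and Gclc (40.0) above Nqo1 (37.5 CPM per kilobase), without overlap. Keap1 and Gclm overlapped there, at 17.6 to 18.6 and 16.9 to 18.2 CPM per kilobase. The merged length counts every annotated exon, which can understate the level of a gene with long exons that these cells do not use.

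The promoters of the NRF2 genes, whether or not they passed the test, were searched for the core of the ARE, TGACNNNGC, on both strands, in windows from 250 bases before to 50 bases after the transcription start (RefSeq, GRCm38.p6). The table held 10 windows for 8 of the 10 genes, 3 of them for Txnrd1, and entries for Gclc and Hmox1 were missing. The core occurred in 5 windows, 1 each of Nfe2l2, Gclm, Srxn1, Prdx1 and Txnrd1, that is in 5 of 8 genes, while 12.4% of all 32851 windows and 13.99% of all 27025 gene symbols held it. A match describes letters only and is not evidence that NRF2 bound there. Each is shown with 10 bases on either side, on the strand on which it reads TGACNNNGC, with the 9 bases of the core in capitals:
Nfe2l2: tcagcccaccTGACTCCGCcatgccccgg
Gclm: tcgtgagagtTGACGGTGCgcccgggagc
Txnrd1: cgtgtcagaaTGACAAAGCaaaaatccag
Srxn1: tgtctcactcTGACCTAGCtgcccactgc
Prdx1: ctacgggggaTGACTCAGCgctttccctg

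Counted with the first transcribed base as 1 and the base before it as -1, the core lay at -240 to -232 in Nfe2l2 (shown bases chr2:75704885-75704913; this RefSeq start is no transcript start in GENCODE M21), at -134 to -126 in Gclm (chr3:122245413-122245441) and at -92 to -84 before the second of the 3 starts of Txnrd1 (chr10:82859104-82859132). It lay at 29 to 37 after the start in Srxn1 (chr2:152105542-152105570) and at -133 to -125 in Prdx1 (chr4:116685456-116685484). Nqo1, the gene with the largest fall, Keap1 and Txn1 had no match in this window, and Prdx1, which did not pass the test, had 1. A second motif, TGACTCA or its reverse complement TGAGTCA, is the site of AP-1 factors and can overlap the ARE core. It occurred 2 times each in Srxn1 and Prdx1 and in none of the other 6 genes. At least 1 copy was held by 5.20% of all windows and by 5.95% of all 27025 gene symbols. The share with 2 copies was not counted. The stretches that hold both copies are shown on the gene's own strand with the motifs in capitals (chr2:152105412-152105495 and chr4:116685352-116685484):
Srxn1: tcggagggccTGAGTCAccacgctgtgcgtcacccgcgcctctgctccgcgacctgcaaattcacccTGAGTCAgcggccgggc
Prdx1: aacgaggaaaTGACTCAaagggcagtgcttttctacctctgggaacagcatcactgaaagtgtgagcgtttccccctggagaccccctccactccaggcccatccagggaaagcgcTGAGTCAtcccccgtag

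In Prdx1 the copy nearer to the start lies inside the ARE core printed before it, at -131 to -125. In Srxn1 the copies lay at -102 to -96 and -45 to -39, both upstream of the start, and apart from the ARE core.

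**Figure D3:**
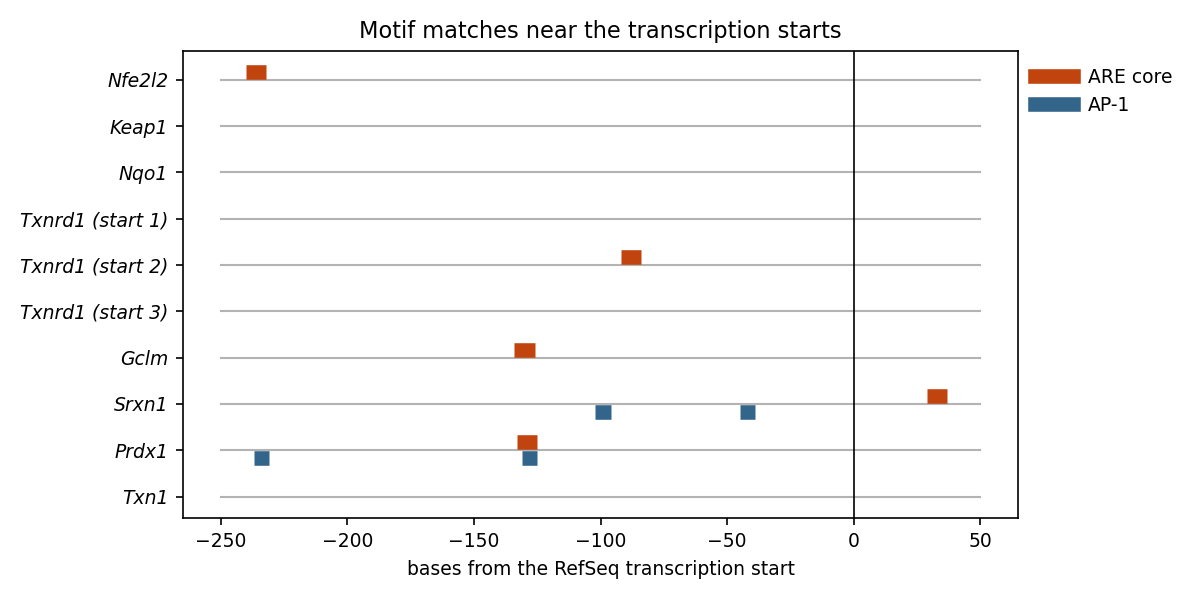
Positions of the ARE core (red) and the AP-1 motif (blue) in bases from the RefSeq transcription start (horizontal axis) for 10 windows of 8 genes, each window drawn as a grey line. 5 windows hold an ARE core, and the windows of Srxn1 and Prdx1 also hold 2 AP-1 motifs each.

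Beyond the 10 genes, 78 other redox genes in 6 lists were examined, of which 77 had a row and 73 were tested. Of these, 27 fell (37.0%) and 14 rose (19.2%), against 18.6% and 17.1% of all genes tested, with a median log2 fold change of -0.041. The falls were spread over all 6 lists, and 7 of the 14 rises lay among thioredoxin, peroxiredoxin and glutaredoxin genes. With library size as the only scaling, 29 fell and 9 rose, and over all genes the share of called genes that were higher changed from 47.8% to 36.8%. In a test against a 1.2-fold change 12 fell and 1 rose. Of the genes named here from these lists, the calls of Cul3, Gsk3b, Gsto1, Abcc4, Glrx3, Ftl1, Fth1, Me1, Ncf4, Rac2 and Sod1 were lost in that test. T-cell markers (10.4 to 10.6 against 62.3 to 66.7 CPM) and markers of mast cells, basophils and neutrophils (12.3 to 14.2 against 95.5 to 101.5 CPM) were lower in the same libraries. So were the B-cell markers Cd79a, Ms4a1 and Pax5. The part of all these markers in the falls was not tested.

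**Figure D4:**
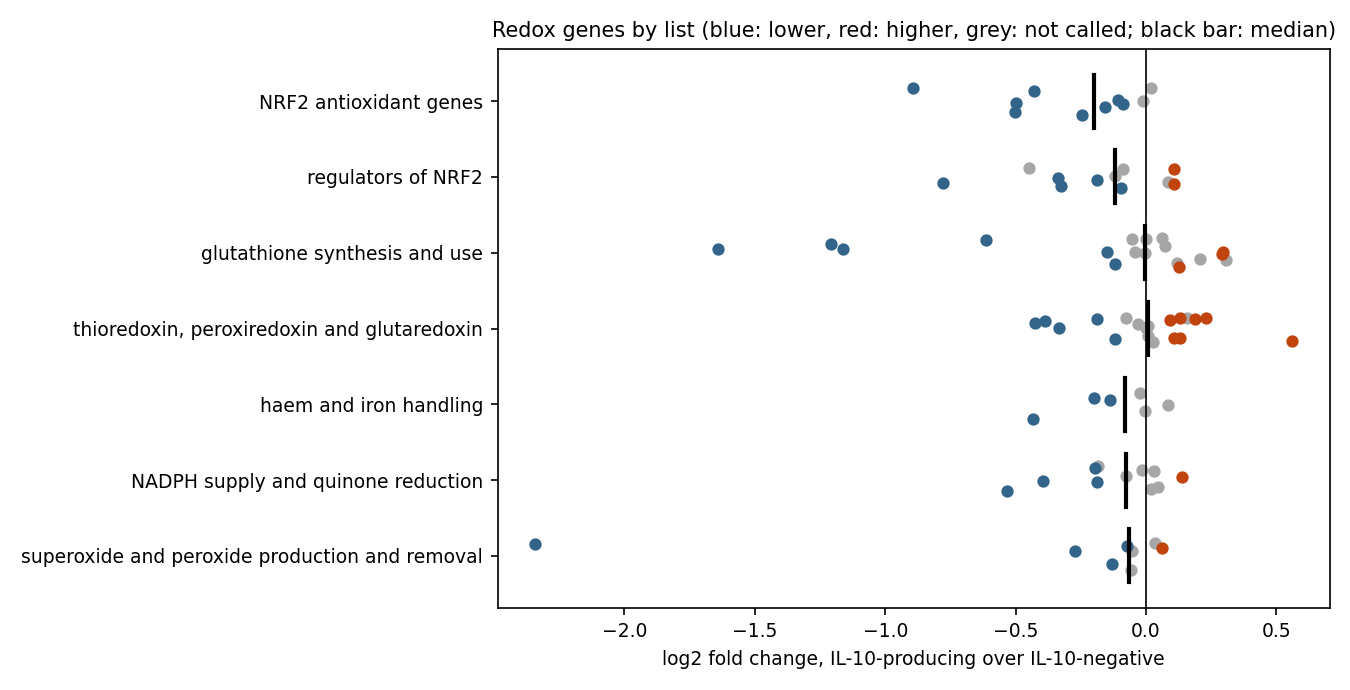
Log2 fold change (horizontal axis, IL-10-producing over IL-10-negative) of each tested gene, for the 10 NRF2 genes and the 6 wider lists, with the median of each list as a black bar. The medians run from -0.20 for the 10 NRF2 genes to 0.0072 for the thioredoxin, peroxiredoxin and glutaredoxin list.

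Among 11 regulators of NRF2, 5 fell, 2 rose and 4 did not pass (median -0.12). Sqstm1 encodes p62, an autophagy receptor that binds KEAP1 and is itself a target of NRF2. It stood at 222, 222 and 214 CPM in IL-10-producing and at 374, 382 and 374 CPM in IL-10-negative libraries. These groups were far apart, with a log2 fold change of -0.78 (SE 0.021, adjusted p = 8.78e-20 with edgeR), close in size to that of Nqo1. Nfe2l1, which encodes the related factor NRF1, fell from 201 ± 2.08 to 160 ± 5.63 CPM (log2 fold change -0.33). Cul3, the scaffold of the KEAP1 ligase, rose from 120 ± 1.90 to 129 ± 1.89 CPM (0.11). Gsk3b, a kinase that marks NRF2 for degradation by another route, rose from 148 ± 2.46 to 159 ± 0.570 CPM (0.11).

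Of 20 genes of glutathione synthesis and use, 18 were tested, 6 fell and 3 rose (median -0.0021). The glutathione S-transferase gene Gstm1 stood at 19.2, 19.4 and 19.98 CPM in IL-10-producing and at 61.9, 60.5 and 59.98 CPM in IL-10-negative libraries. Its log2 fold change of -1.64 (SE 0.040, adjusted p = 1.22e-20 with edgeR) was larger in size than that of any of the 10 NRF2 genes. Chac1, whose product degrades glutathione, fell from 23.0 ± 0.948 to 15.04 ± 0.994 CPM (-0.61). Gsto1, another transferase gene, rose from 37.0 ± 0.623 to 45.4 ± 0.550 CPM (0.30), and the exporter gene Abcc4 rose from 51.5 ± 2.11 to 62.9 ± 2.92 CPM (0.29). Abcc1, the exporter of glutathione conjugates, did not pass, at 194 ± 0.789 against 194 ± 0.655 CPM.

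The 19 genes of the thioredoxin, peroxiredoxin and glutaredoxin list split, with 7 higher, 5 lower and 7 not past the test (median 0.0072). Glrx encodes glutaredoxin 1, which removes glutathione from protein cysteines. It stood at 253, 247 and 245 CPM in IL-10-producing and at 168, 171 and 167 CPM in IL-10-negative libraries. That is a rise without overlap (log2 fold change 0.56, SE 0.022, adjusted p = 1.50e-16 with edgeR), opposite to the falls of the NRF2 genes. Glrx3, a second glutaredoxin gene, rose from 67.8 ± 1.146 to 79.5 ± 1.53 CPM (0.23). The sestrin gene Sesn3 fell from 127 ± 1.99 to 94.6 ± 2.31 CPM (-0.43). Txnip, the thioredoxin-binding inhibitor, fell from 252 ± 4.41 to 200.1 ± 3.51 CPM (-0.33).

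Of 7 genes of haem and iron handling 6 were tested, 3 fell and 0 rose (median -0.079). The ferritin genes, which encode the chains of the iron store, fell together. Ftl1 stood at 1416, 1418 and 1417 CPM in IL-10-producing and at 1651, 1606 and 1626 CPM in IL-10-negative libraries (log2 fold change -0.20). Fth1 fell from 881 ± 5.19 to 802 ± 9.01 CPM (-0.14). Of 11 genes of NADPH supply and quinone reduction, 4 fell and 1 rose (median -0.076). G6pdx, the entry enzyme of the pentose phosphate pathway and a source of NADPH, stood at 113, 115 and 107 CPM in IL-10-producing and at 146, 146 and 149 CPM in IL-10-negative libraries. The groups lay apart (log2 fold change -0.40, SE 0.027, adjusted p = 7.50e-12 with edgeR). Nqo2, the relative of Nqo1, fell from 8.24 ± 0.187 to 5.67 ± 0.338 CPM (-0.53). Me1, malic enzyme, rose from 22.4 ± 0.786 to 24.6 ± 1.17 CPM (0.14, adjusted p = 0.0375 with edgeR); this call did not hold with unscaled library sizes (adjusted p = 0.109), with DESeq2 (0.0763) and without IL-10-producing replicate 1 (0.196), IL-10-negative replicate 1 (0.146) or IL-10-negative replicate 3 (0.0704). Tkt, transketolase, did not pass, at 402 ± 1.85 against 396 ± 4.24 CPM; it passed as higher only after the correction for GC content and length (0.0460).

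Of 10 genes of superoxide and peroxide production and removal, 8 were tested, 4 fell and 1 rose (median -0.064). Ncf4, a subunit of the phagocyte NADPH oxidase, fell from 62.9 ± 1.12 to 52.0 ± 1.06 CPM (log2 fold change -0.27). Rac2, a GTPase that activates the same oxidase, fell from 555 ± 1.86 to 507 ± 1.82 CPM (-0.13). Sod1, the cytosolic superoxide dismutase, rose from 229 ± 3.46 to 239 ± 6.22 CPM (0.062, adjusted p = 0.0323 with edgeR). The Sod1 call did not hold with unscaled library sizes (0.295) and without IL-10-producing replicate 1 (0.196), IL-10-negative replicate 1 (0.0626) or IL-10-negative replicate 2 (0.146).

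**Figure D5:**
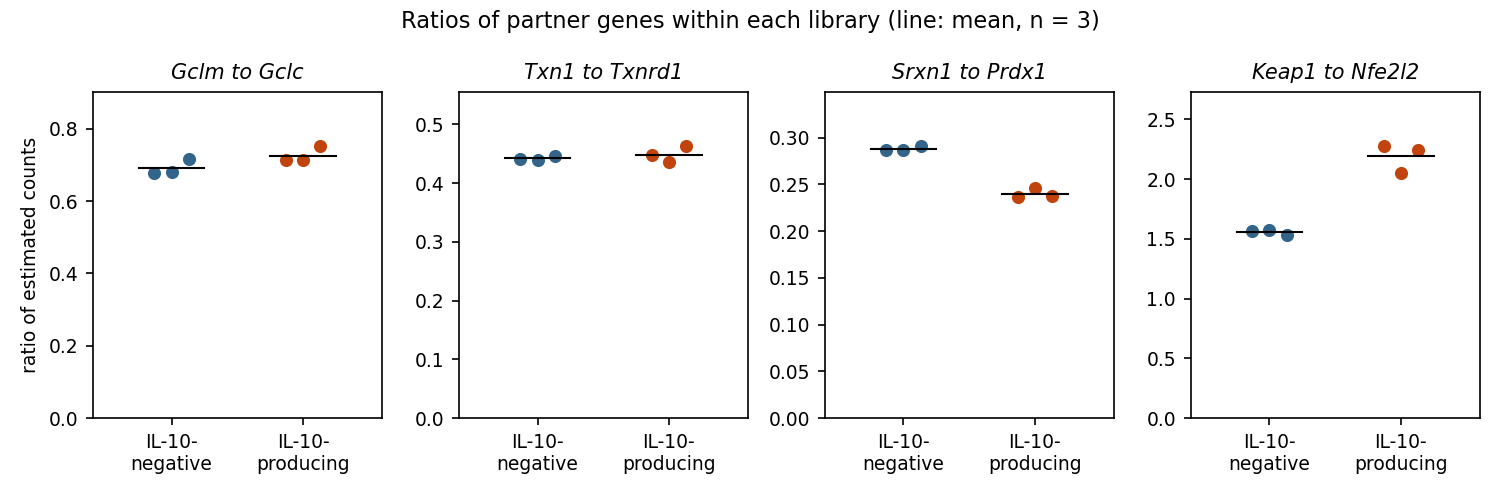
Ratio of estimated counts, not corrected for length, for 4 pairs of partner genes within each library (vertical axes from 0; lines are means of 3 libraries). Keap1 to Nfe2l2 is higher (2.06 to 2.27 against 1.53 to 1.57) and Srxn1 to Prdx1 lower in IL-10-producing cells, while the other 2 ratios overlap.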

How the data were processed

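The tools named for the reads are STAR 2.5.3a, Partek and bcl2fastq 2.17.1.14, with build mm10 (per the submitters' processing notes); no source used here gives the annotation release or strand setting. The authors deposited estimated counts per gene, not normalized; of these values 50.1% were not whole; among the 10 genes, all 6 values were whole for Nfe2l2, Nqo1 and Srxn1 and none for Keap1, Txnrd1 and Gclm. They also deposited a normalized signal table of 13824 genes, whose values equalled the count plus 1 times a factor per library (100% within 1%). Positions were taken from the count table with 1 subtracted from the stop, which matched GENCODE M21 for all 10 genes.

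Counts were rounded and tested with edgeR 4.0.16 in R 4.3.3 (quasi-likelihood F test, TMM factors, filterByExpr with minimum count 10 and total 15, group as the only term), with Benjamini-Hochberg adjustment over 16654 genes and a threshold of 0.05. The SE is the log2 fold change divided by the square root of F. Counts of the 10 genes ran from 1817 to 38923 per library. Within groups, pairs of libraries differed by 2.39 to 2.96 times the Poisson expectation, so no library was a copy. The script was tested on simulated data. The genes, lists and tests were chosen with earlier results of these data known. Named besides the 10 genes were, per list, the 2 called genes of smallest p in each direction (mean of 5 CPM or more in the higher population) and the gene of highest mean CPM over all 6 libraries, and likewise the 2 markers of highest mean CPM per cell type. A marker of the B-cell list, and the sum that holds it, are not reported here. Alternatives were DESeq2 1.42.0 and its size factors, library size only, no filter or at least 50 counts in 3 libraries, limma 3.58.1 (voom, and on the log2 normalized table with pseudocount 1), glmTreat at 1.2-fold, the replicate number as a block and each library left out. A GC and length correction (known for 99.93% of genes) was added after the data had been seen, with and without the block.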

Additional observations from a re-analysis of the deposited data

How the results depend on the processing

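Across 17 alternatives the falls of Nqo1, Nfe2l2, Gclc and Gclm passed in all 17, with log2 fold changes of -0.92 to -0.87, -0.53 to -0.47, -0.53 to -0.49 and -0.46 to -0.41. Those of Srxn1, Hmox1, Txnrd1 and Txn1 passed in 16 and were lost in the test against 1.2-fold, where each adjusted p was 1. Keap1 (-0.043 to 0.020) and Prdx1 (-0.018 to 0.043) passed in 0 of 17 and changed sign between alternatives. The test against 1.2-fold left 4 NRF2 genes lower, 12 redox genes lower, 1 redox gene higher and 1317 genes changed in all, because it asks for a larger change. With library size only, 9 redox genes were higher instead of 14. Leaving out 1 library at a time gave a log2 difference of the Gclm to Gclc ratio of 0.046 to 0.097 and of the Txn1 to Txnrd1 ratio of -0.0032 to 0.0399. With the replicate number as a block, 8 NRF2 genes were lower, 13 redox genes higher and 27 lower, of 5817 genes changed. Same-numbered libraries did not deviate together (r of deviations -0.048, -0.023 and -0.030, against 0.0017 to 0.028 for the other pairs). None correlated best with its own number. Deviations from means of only 3 libraries cannot decide whether same-numbered libraries shared a mouse or culture, and the labels do not say. With 3 libraries a group, the permutation test of a ratio cannot go below 0.1. Within groups, the median gene differed between libraries by 2.39 to 2.96 times the Poisson expectation. Counting error was therefore a part of that spread, and its share for each NRF2 gene was not examined.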

Other observations

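Members of the peroxiredoxin family, chosen after their values were seen, did not move alike. Prdx2 rose from 119 ± 2.72 to 131 ± 0.705 CPM and Prdx4 from 64.4 ± 1.76 to 73.4 ± 2.33 CPM in IL-10-producing cells (SD, n = 3; log2 fold changes 0.13 and 0.19 in the edgeR fit). Prdx5 stood at 74.5 ± 4.21 against 69.1 ± 2.32 CPM (0.11, adjusted p = 0.0266 with edgeR), a call lost with unscaled library sizes (0.131) and without IL-10-producing replicate 1 (0.108), IL-10-producing replicate 3 (0.120) or IL-10-negative replicate 2 (0.156). The calls of Prdx2, Prdx4 and Prdx5 were all lost in the test against a 1.2-fold change (adjusted p = 1 for each). Prdx6, which unlike the others relies on glutathione rather than thioredoxin for its reduction, fell from 112 ± 4.89 to 86.0 ± 1.89 CPM (-0.39). Prdx3, the mitochondrial member, did not pass at 59.3 ± 1.604 against 59.0 ± 1.74 CPM. Of the redox genes tested Ncf1, a subunit of the phagocyte NADPH oxidase, had the largest fall, from 1.76 ± 0.147 to 0.339 ± 0.0753 CPM (-2.34), at a level far below that of Ncf4; markers of mast cells, basophils and neutrophils were lower in the same libraries (12.3 to 14.2 against 95.5 to 101.5 CPM), and their part in this was not tested.

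Bach1, also chosen after its values were seen, encodes a repressor that competes with NRF2 at AREs, and it fell from 43.1 ± 1.79 to 34.2 ± 2.24 CPM (-0.34). Mafk, a small MAF partner gene, fell from 38.0 ± 2.18 to 33.4 ± 0.662 CPM (-0.19). The more abundant Mafg, at 124 to 127 against 133 to 135 CPM, fell less (-0.094). Its call was lost in the test against a 1.2-fold change and with the GC and length correction with block (adjusted p = 0.0560 with edgeR). Maff did not pass (0.084, adjusted p = 0.574 with edgeR). Gsr, glutathione reductase, fell from 140 ± 0.581 to 126 ± 2.07 CPM (-0.15), and Gpx1, the main cytosolic glutathione peroxidase, rose from 178 ± 4.62 to 195 ± 2.37 CPM (0.13). Other glutathione peroxidase genes did not move with Gpx1. Gpx4 was called lower (-0.12, adjusted p = 0.0207 with edgeR), a call lost with DESeq2 (0.0535) and in the test against a 1.2-fold change, among others. Gpx7 did not pass (0.062, adjusted p = 0.469 with edgeR). The calls of Bach1, Mafk, Gsr and Gpx1 were lost in the test against a 1.2-fold change and held in the other 16 alternatives.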
